A study of Mus musculus with 20 samples.

Results

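Complexes II to V of the mitochondrial respiratory chain were followed at the level of their nuclear-encoded subunit transcripts in mouse ventricular myocardium with and without the gene Sorbs2. The genes were every row of the deposited tables whose symbol matched Sdha to Sdhd, Cyc1, or began with Uqcr, Cox4 to Cox8 or Atp5. This gave 47 genes of 19222 in all, of which 4 belong to complex II, 9 to complex III, 17 to complex IV and 17 to complex V, counted by symbol. The hearts were taken at 6 weeks from 3 Sorbs2 KO and 3 WT mice, and at 6 months from 4 KO+AAV, 5 KO and 5 WT mice. KO+AAV mice had the same genotype label as KO mice and had received AAV9-Tnnt2-Sorbs2 on postnatal day 2, an adeno-associated virus whose Tnnt2 promoter drives Sorbs2 in cardiomyocytes. All other mice were untreated, so no group had a vector without Sorbs2. The labels give neither strain nor sex, nor the form of the Sorbs2 deletion, and name the tissue as left ventricle. They describe each library as a replicate mouse without saying whether mice were pooled or shared a litter, and p-values measure the spread between these libraries.

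As background, complex II passes electrons from succinate to ubiquinone, complex III passes them on to cytochrome c, and complex IV passes them from cytochrome c to oxygen. Complexes III and IV pump protons while doing so, and complex V, the ATP synthase, lets the protons flow back and makes ATP. The heart depends on this chain for nearly all of its ATP, and its mitochondria carry muscle-type isoforms of several complex IV subunits in place of the widely expressed ones. The nuclear genes for these subunits are known targets of the factors NRF1 and GABPA (an ETS factor), of the estrogen-related receptors with their coactivator PGC-1alpha, and of YY1.

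Promoters are shown for 5 genes on which the results below turn: Sdhb, Uqcrc1 and Atp5g3, which were lower in KO hearts at 6 months under every setting tried, and the isoform pair Cox8b and Cox8a, whose ratio was lower there. Each run covers 250 bases before to 50 bases after the annotated start, 5′ to 3′ along the gene (RefSeq, GRCm38.p6). Capitals mark matches, on either strand, to the letters GCGCATGC (NRF1), AAGGTCA (ERR), CCGGAAG (ETS) or AAGATGGC (YY1). Sdhb lies at chr4:140961021-140961320 on the plus strand, Uqcrc1 at chr9:108936398-108936697 on the plus strand, Atp5g3 at chr2:73911277-73911576 on the minus strand, Cox8b at chr7:140900397-140900696 on the minus strand and Cox8a at chr19:7217567-7217866 on the minus strand.
Sdhb: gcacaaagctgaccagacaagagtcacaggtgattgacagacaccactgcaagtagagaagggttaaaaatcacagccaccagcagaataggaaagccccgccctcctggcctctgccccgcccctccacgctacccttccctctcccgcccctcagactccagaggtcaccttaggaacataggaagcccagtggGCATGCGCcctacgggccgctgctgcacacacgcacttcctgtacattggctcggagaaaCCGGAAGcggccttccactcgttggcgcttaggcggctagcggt
Uqcrc1: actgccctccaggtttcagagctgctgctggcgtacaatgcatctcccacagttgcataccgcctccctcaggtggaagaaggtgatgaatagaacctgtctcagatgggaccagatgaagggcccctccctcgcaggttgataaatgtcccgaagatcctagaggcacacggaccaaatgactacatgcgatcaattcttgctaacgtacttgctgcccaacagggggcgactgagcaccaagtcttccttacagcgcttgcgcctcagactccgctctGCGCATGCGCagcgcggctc
Atp5g3: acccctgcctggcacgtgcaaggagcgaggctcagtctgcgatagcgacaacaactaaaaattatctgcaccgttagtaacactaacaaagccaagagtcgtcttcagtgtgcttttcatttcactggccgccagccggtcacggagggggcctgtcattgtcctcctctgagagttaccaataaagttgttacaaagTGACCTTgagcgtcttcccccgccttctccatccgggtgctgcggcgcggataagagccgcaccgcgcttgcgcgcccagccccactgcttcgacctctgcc
Cox8b: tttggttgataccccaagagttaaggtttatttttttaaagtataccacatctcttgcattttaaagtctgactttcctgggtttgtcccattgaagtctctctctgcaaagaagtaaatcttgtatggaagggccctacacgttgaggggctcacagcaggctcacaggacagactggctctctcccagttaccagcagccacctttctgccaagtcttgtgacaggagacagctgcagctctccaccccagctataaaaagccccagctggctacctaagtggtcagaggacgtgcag
Cox8a: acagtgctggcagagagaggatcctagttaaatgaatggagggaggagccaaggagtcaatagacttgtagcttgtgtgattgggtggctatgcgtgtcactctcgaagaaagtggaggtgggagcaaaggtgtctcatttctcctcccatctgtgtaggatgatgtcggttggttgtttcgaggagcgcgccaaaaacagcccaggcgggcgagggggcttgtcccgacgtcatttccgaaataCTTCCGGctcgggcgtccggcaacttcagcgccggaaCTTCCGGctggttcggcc

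The Sdhb promoter held 1 NRF1 and 1 ETS match, that of Uqcrc1 2 overlapping NRF1 matches on opposite strands, that of Atp5g3 1 ERR match and that of Cox8a 2 ETS matches. No match to these letters lay in the window of Cox8b. Of the 47 genes, 37 matched the RefSeq promoter table, and 18 of the 37 held at least 1 of the 4 motifs, against 19.7% of 27025 genes in that table. ETS letters occurred in 12 of the 37 (9.93% of all genes), NRF1 letters in 7 (3.05%), ERR letters in 5 (5.38%) and YY1 letters in 4 (3.19%). These are letter matches and were not tested as binding sites.

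Values are the authors' normalised counts per gene, and the 2 ages were normalised apart, so levels are compared within an age only. At 6 weeks the values of a library added up to between 6790437 and 7414665 in KO hearts and between 6705133 and 8240294 in WT hearts. At 6 months the sums ran from 12024143 to 13041764 in KO+AAV, from 11359135 to 12222476 in KO and from 12492381 to 13670340 in WT hearts. The number of reads behind a value is unknown. Sorbs2 itself had values of 4696, 5753, 15690.3 and 17923 in KO+AAV hearts, 1648, 612, 593, 494 and 1755 in KO hearts and 5352, 5398, 5136, 4562 and 4753 in WT hearts at 6 months. At 6 weeks it had 365, 334 and 276 in KO hearts, against 1409, 1751 and 1989.8 in WT hearts. The KO groups lay below WT at both ages and did not overlap with it (6 months, log2 change -2.52 ± 0.40, SE; adjusted p = 0.000543; 6 weeks, log2 change -2.39 ± 0.20, SE; adjusted p = 0.000552). Within the KO group, libraries 1 and 5 had the higher Sorbs2 values, and within KO+AAV libraries 1 and 2 had the lower ones. The same 4 libraries had the lowest values of their groups for the longest subunit transcripts, Sdha, Atp5a1, Atp5b and Uqcrc2. This did not hold for all long ones, such as Sdhb and Uqcrc1. Each main count is therefore also given without these 4 libraries. Cardiomyocyte genes were high in all libraries: the 10 markers listed summed to at least 383792 in every heart.

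At 6 months the subunit genes were lower in KO than in WT hearts across all 4 complexes. Of 46 genes that passed the filter on low values, 29 fell and 0 rose (limma, adjusted p below 0.05 over 13419 genes), where 8.18% of all tested genes fell. The log2 change was below 0 for all 46, with a median of -0.66, against 0.00 for all tested genes, and Cox6b2, the change nearest to 0, turned above 0 when libraries were scaled to equal totals. In 20 of the 46, every KO heart lay below every WT heart, which held for 7.29% of all tested genes. Together the 47 genes took 3.09% ± 0.25 of the library total in KO hearts (SD, n = 5) and 4.58% ± 0.58 in WT hearts (SD, n = 5). In whole tissue, fewer cardiomyocytes and less of these transcripts per cardiomyocyte cannot be told apart.

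**Figure D1:**
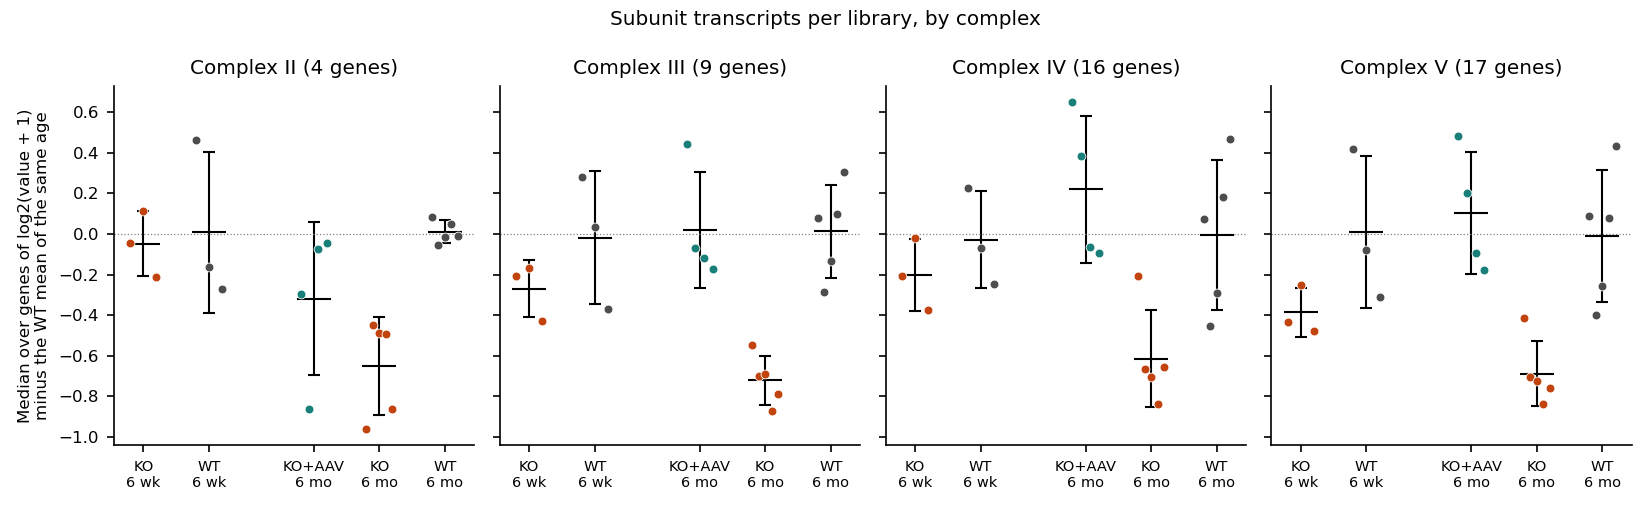
Median over the genes of each complex of log2(value + 1) minus the WT mean of the same age (vertical axis), 1 point per library, by group (horizontal axis); bars are mean and SD. At 6 months all 5 KO points of complexes II and III lie below all WT points, and in complex IV KO library 1 lies within the WT range.

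Cardiomyocyte markers were lower in KO hearts beside the subunit genes: 4 of 10 fell and 0 rose, where 8.18% of all tested genes fell, with a median log2 change of -0.66 and sums of 763873 to 1120820.0 in KO against 1418800.0 to 1685606 in WT hearts. Fibroblast markers moved the other way, with 6 of 10 up and 0 down (median 0.74), where 8.13% of all tested genes rose. Of 4 tested atrial markers 2 rose and 1 fell, and the 7 listed summed to 37909.6 to 127157 in KO against 6399.7 to 10305 in WT hearts. No endothelial, macrophage, erythroid, adipocyte or skeletal muscle marker passed the test in either direction, and none of these markers was at 0 in all libraries. The part of cell composition in the change of the subunit genes was not tested.

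Complex II is the one complex encoded wholly in the nucleus. Sdhb, the iron-sulfur subunit, fell to 58.7% of the WT level at 6 months, with values of 8375, 7768, 7823, 7001 and 6589.7 in KO hearts, against 13506, 10377, 10832, 13806 and 16052 in WT hearts (log2 change -0.77 ± 0.16, SE; adjusted p = 0.00338). Sdhc, a membrane anchor subunit, had 4467, 5823, 5536, 5749.5 and 4970.4 in KO hearts, against 8994, 7846, 7758, 8969 and 8868 in WT hearts (log2 change -0.68 ± 0.14, SE; adjusted p = 0.00316). Sdhd, the other anchor, had 2718, 4242, 4223, 4024 and 3175 in KO hearts, against 5335, 5438, 5799.6, 5508 and 5108 in WT hearts (log2 change -0.59 ± 0.18, SE; adjusted p = 0.0346). In these 3 genes the KO and WT hearts did not overlap. Sdha, the flavoprotein that oxidises succinate, did not pass the test (log2 change -0.62 ± 0.32, SE; adjusted p = 0.215). Its values were 6102, 15404, 16357, 16655 and 7937 in KO hearts, against 20888, 22448, 19933, 16232 and 11568 in WT hearts. KO hearts 2, 3 and 4 lay within the WT range of Sdha, and KO hearts 1 and 5 lay below it.

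In complex III, 6 of 9 genes fell and the other 3, Uqcr10, Uqcr11 and Uqcrq, did not pass the test. Uqcrc1, a core subunit, had the largest change, with 10084, 12308, 13265, 11688 and 9158 in KO hearts, against 24902, 19245, 19708, 20774 and 22961 in WT hearts (log2 change -0.94 ± 0.15, SE; adjusted p = 0.000434). The catalytic subunits moved by similar amounts. Cyc1, cytochrome c1, had 6558, 7147, 7975, 6738 and 6408 in KO hearts, against 13588, 10481, 11262, 12350.0 and 13617 in WT hearts (log2 change -0.81 ± 0.12, SE; adjusted p = 0.000307). Uqcrfs1, the Rieske iron-sulfur protein, had 6611, 7402, 7270.5, 6269.7 and 5404 in KO hearts, against 12998, 10770.0, 11405, 12617 and 13771 in WT hearts (log2 change -0.90 ± 0.14, SE; adjusted p = 0.000504). Every KO heart lay below every WT heart in all 3 of these genes. Uqcrb, a small subunit at the quinone pocket, had 3872, 4201, 3532, 3232 and 3273 in KO hearts, against 5731, 4647, 5170.3, 6059 and 6995 in WT hearts (log2 change -0.65 ± 0.15, SE; adjusted p = 0.00744), again without overlap. Uqcrc2, the second core subunit, and Uqcrh, the hinge protein, fell by 0.68 and 0.62 on the log2 scale.

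The 3 genes of complex III that did not pass encode small subunits with short transcripts. Uqcr10 had 4253, 2515, 2566, 2495 and 3423 in KO hearts, against 4242, 2718, 3143, 4706 and 6177 in WT hearts (adjusted p = 0.234). Uqcr11 had 6047, 3458, 3221, 3092 and 4045 in KO hearts, against 6451, 4108, 4812, 6898 and 10477 in WT hearts (adjusted p = 0.0905). Uqcrq had 8813, 5020.3, 4597, 4392 and 5859 in KO hearts, against 8622, 5409, 6311, 9216 and 13324 in WT hearts (adjusted p = 0.202). In each of them KO heart 1 lay above the lowest WT heart, as did KO heart 5 for Uqcr10 and Uqcrq, while KO hearts 2, 3 and 4 lay below all WT hearts.

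In complex IV, 7 of 16 tested genes fell. Cox4i1, the common form of the regulatory subunit 4, had 23919, 18125, 17822, 16167 and 17929 in KO hearts, against 35534, 25555, 26050.1, 36027 and 45374 in WT hearts (log2 change -0.82 ± 0.20, SE; adjusted p = 0.00943). Cox5a had 8069, 7976, 8377, 7377 and 7315 in KO hearts, against 14091, 10415, 11468, 13029 and 14928 in WT hearts (log2 change -0.70 ± 0.13, SE; adjusted p = 0.00133). Neither gene overlapped between KO and WT hearts. Cox7a1, the muscle form of subunit 7a, had the largest change of all 46 genes, with 5972, 4240.2, 3627, 3138 and 3043 in KO hearts, against 8975, 5362, 6549.6, 9258 and 11816 in WT hearts (log2 change -1.06 ± 0.26, SE; adjusted p = 0.0117). Cox8b, the muscle form of subunit 8, had 4716, 2652, 2717, 2282 and 2653 in KO hearts, against 6041, 3763, 4275, 6449.9 and 9284 in WT hearts (log2 change -0.96 ± 0.26, SE; adjusted p = 0.0186). In both, KO heart 1 alone reached above the lowest WT heart. Cox5b, Cox6b1 and Cox7b also fell, by 0.74, 0.58 and 0.68 on the log2 scale. Cox7b2, known as a testis form, stayed under the filter, with values of at most 4.1.

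The 9 other complex IV genes did not pass the test. Cox6c, a small structural subunit, had 10938, 6741, 6038, 5473 and 6752 in KO hearts, against 11919, 8181, 8509, 12983 and 18411 in WT hearts (adjusted p = 0.0615). Cox7c, another small subunit, had 8170.4, 5577, 5193, 4759 and 5530.3 in KO hearts, against 8623, 6413, 7306, 10372 and 12381 in WT hearts (adjusted p = 0.0611). In both only KO heart 1 lay above the lowest WT heart. Cox7a2, the widely expressed form of subunit 7a, had 4402, 2718, 2657, 2377 and 3292 in KO hearts, against 4710.0, 3080.3, 3701, 5390.5 and 6966 in WT hearts (adjusted p = 0.0736). Cox7a2l, a factor that joins complexes III and IV, had 3309.5, 2799, 2717, 2629 and 3101 in KO hearts, against 3692, 3211, 3317, 3912 and 4295 in WT hearts (adjusted p = 0.0735). Cox6a2, the muscle form of subunit 6a, had 18338, 12132, 11937, 12588 and 14601 in KO hearts, against 17708, 12868, 14513, 21620.1 and 24200.4 in WT hearts (adjusted p = 0.343). These genes had KO hearts on both sides of the lowest WT heart. The remaining 4 had the changes nearest to 0, and all are minor forms in heart: Cox6a1 and Cox8a are the widely expressed forms of subunits 6a and 8, Cox4i2 is an oxygen-responsive form of subunit 4, and Cox6b2 is known from testis. Cox6a1 had 1154, 821, 719, 636 and 942 in KO hearts, against 957, 687, 797, 1088 and 1308 in WT hearts (adjusted p = 0.659). Cox8a had 1551, 1066, 1030.1, 1189 and 1406 in KO hearts, against 1375, 1131, 1423, 1441 and 1801 in WT hearts (adjusted p = 0.432). Cox4i2 had 163, 77.3, 104, 76.6 and 143 in KO hearts, against 158, 94.8, 95.8, 171 and 173 in WT hearts (adjusted p = 0.479). At least 3 of 5 KO hearts lay within or above the WT range in each of these 3 genes. Cox6b2, near the filter, had 3.28, 11.8, 5.28, 4.97 and 7.63 in KO hearts, against 10.9, 5.63, 4, 4.99 and 7.29 in WT hearts (adjusted p = 0.972).

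In complex V, 13 of 17 genes fell. The 2 largest changes were those of Atp5g3 and Atp5g1, which encode subunit c of the rotating ring in the membrane. Atp5g3 had 14897, 12677, 13323, 11204 and 11849 in KO hearts, against 24890.3, 18517, 19633, 24789 and 31683 in WT hearts (log2 change -0.88 ± 0.17, SE; adjusted p = 0.00204). Atp5g1 had 10423, 8966, 9382, 8012 and 8313 in KO hearts, against 18288, 12487, 14588, 16802 and 21627 in WT hearts (log2 change -0.87 ± 0.17, SE; adjusted p = 0.00235). Atp5g2, the third and least abundant gene for subunit c, changed less and had 1946, 2211, 2179, 2238 and 2259 in KO hearts, against 3454, 2855, 2784, 3487 and 3748 in WT hearts (log2 change -0.58 ± 0.11, SE; adjusted p = 0.00252). None of these overlapped between KO and WT hearts. All 31-base words of the Atp5g2 transcript also occur in other annotated genes, as do 57.6% of those of Atp5g1 and 0% of those of Atp5g3, so how the authors' counting treated such reads could affect the first 2. The same share was 40.2% to 85.4% in 8 other genes (Cox5b, Atp5f1, Cox5a, Cox7c, Uqcrb, Atp5h, Atp5o and Atp5l), and exons of genes on the opposite strand cover 19.7% of Uqcrc2, 12.8% of Cox5a, 12.7% of Atp5j and 10.3% of Cox6a2. The catalytic head subunits alpha and beta, Atp5a1 and Atp5b, fell by 0.81 and 0.77 on the log2 scale, and Atp5c1 and Atp5d, subunits gamma and delta, by 0.64 and 0.72. Of the peripheral stalk, Atp5f1 (subunit b), Atp5h (subunit d) and Atp5o (the oligomycin sensitivity protein) fell by 0.66 to 0.75.

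Of the other complex V genes, Atp5s had 154, 188, 158, 159 and 129 in KO hearts, against 259.8, 283, 216, 221 and 256 in WT hearts, with no overlap (log2 change -0.65 ± 0.14, SE; adjusted p = 0.0049). Atp5s and Atp5sl, which also fell (log2 change -0.52), carry ATP synthase symbols but are Dmac2l and Dmac2 in RefSeq and are not core subunits, and leaving them aside 11 of 15 complex V genes fell. The 4 genes that did not pass were subunit epsilon, coupling factor 6 and 2 small membrane subunits. Atp5e (epsilon) had 6837, 3088, 2867, 2939 and 4300.4 in KO hearts, against 6289, 3820.5, 4315, 7369 and 10898 in WT hearts (adjusted p = 0.183). Atp5j (factor 6) had 7263, 4867, 4613, 4559.8 and 5216 in KO hearts, against 8451, 5800.5, 6197, 9509 and 12419 in WT hearts (adjusted p = 0.0629). Atp5j2 (subunit f) had 10736, 6969.9, 6319, 5846 and 7107 in KO hearts, against 11756, 7741, 9034, 13161 and 17489 in WT hearts (adjusted p = 0.0825). KO heart 1 lay within the WT range in all 3. Atp5k (subunit e) had 4976, 2702, 2423, 2110.1 and 2907 in KO hearts, against 5087, 2864, 3615, 5019 and 7823 in WT hearts (adjusted p = 0.108). Here KO hearts 1 and 5 lay above the lowest WT heart.

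**Figure D2:**
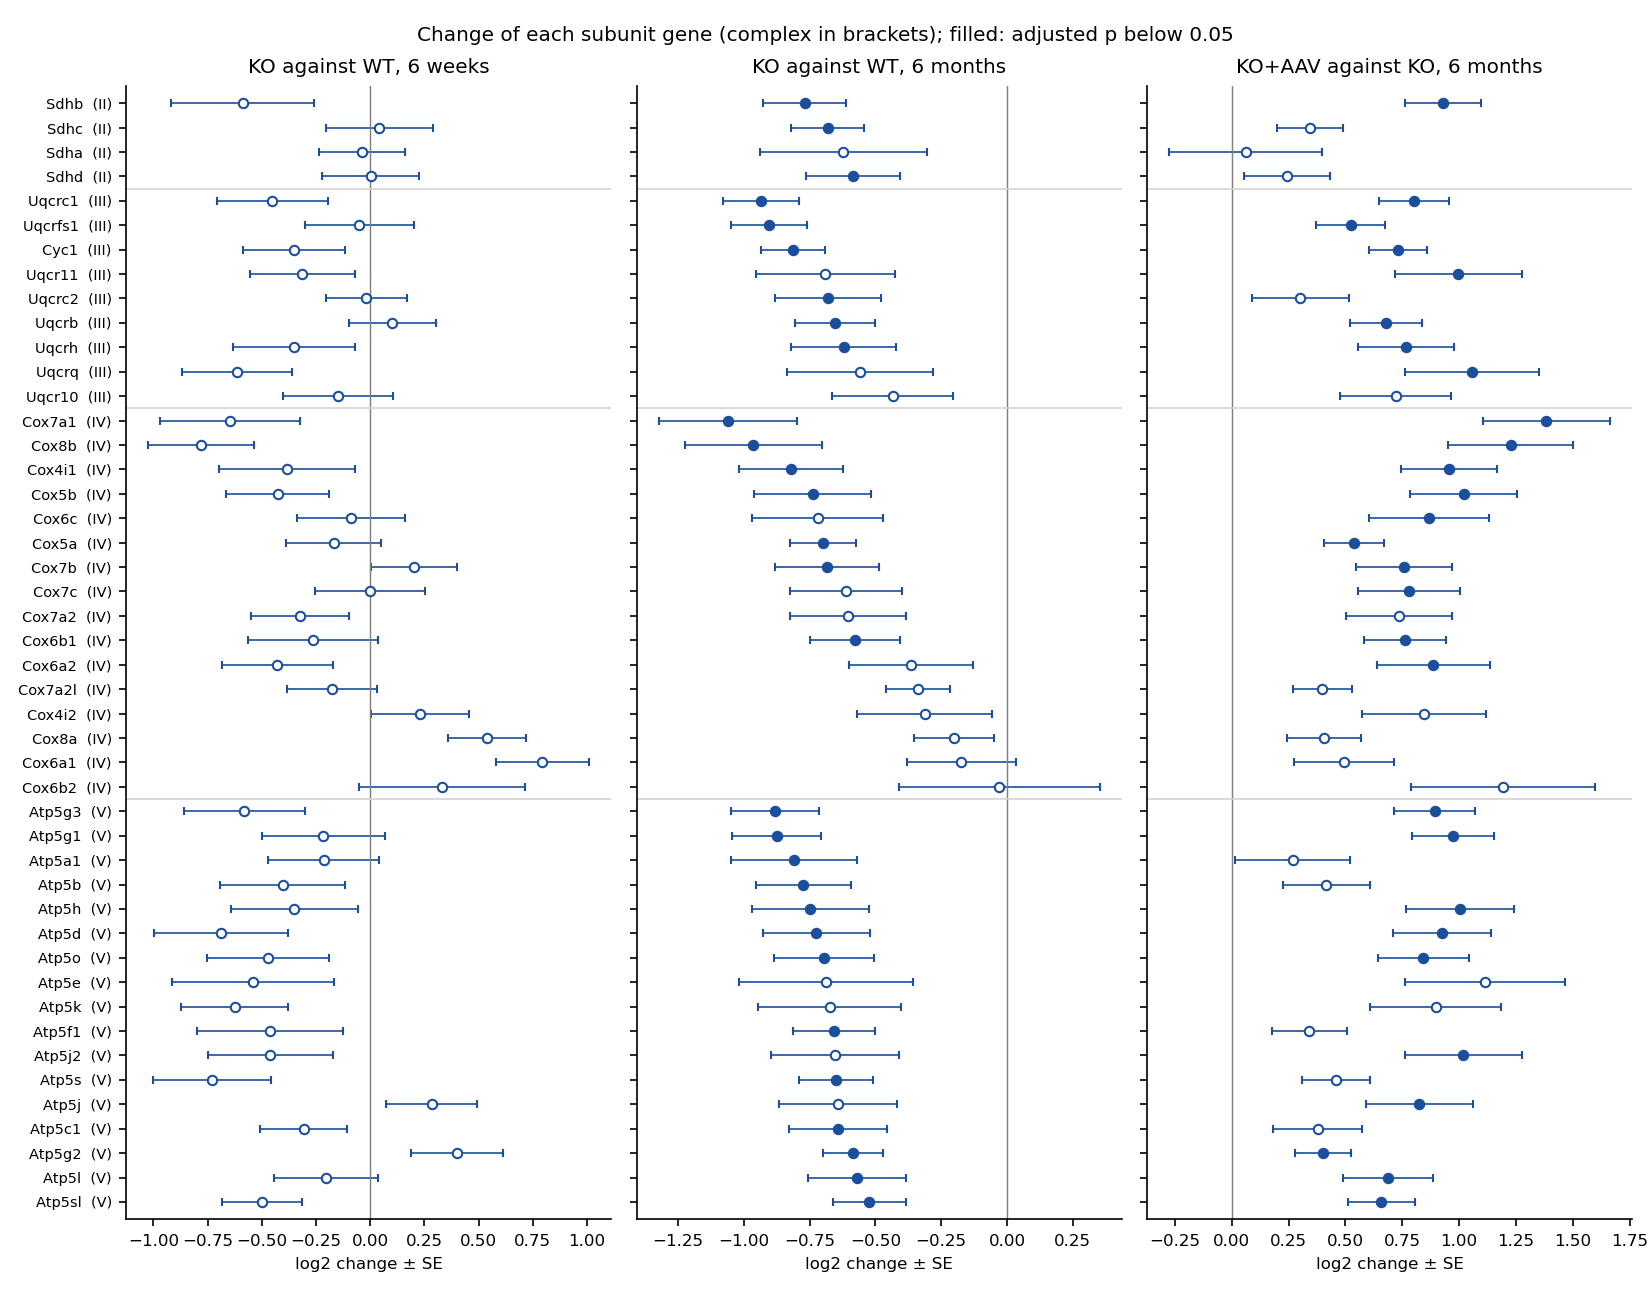
log2 change with its SE (horizontal axis) of each of 46 subunit genes (vertical axis, by complex), for KO against WT at 6 weeks, KO against WT at 6 months and KO+AAV against KO at 6 months; filled points passed the test. At 6 months 29 genes fell in KO and 28 rose in KO+AAV, and at 6 weeks 0 passed; each panel has its own horizontal scale.

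Without the 4 libraries that stand apart, KO hearts 1 and 5 and KO+AAV hearts 1 and 2, 37 of 46 genes fell between KO and WT, where 8.22% of all tested genes fell, with 45 below 0 and a median of -0.75. In all, 11 genes kept their call under all 24 alternatives. They were Sdhb and Sdhc of complex II, Uqcrc1, Uqcrfs1, Cyc1 and Uqcrb of complex III, Cox5a of complex IV, and Atp5g1, Atp5g2, Atp5g3 and Atp5s. The count was 17 without WT heart 1, 19 without KO heart 5, and 16 with totals made equal or with quantile normalisation. The share of all tested genes is not set beside these counts, so a loss in the subunit genes is not told apart from a loss over all genes. Xist was expressed in 2 of 4 KO+AAV, 0 of 5 KO and 2 of 5 WT hearts, and Y-linked genes in the others. With a term for this class 17 genes fell (6.35% of all tested genes), and 12 fell among the hearts with Y-linked genes alone (5.03% of all).

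In KO+AAV hearts the subunit genes were higher than in KO hearts. Of 46 genes 28 rose and 0 fell, where 5.55% of all tested genes rose, and the median log2 change was 0.76, against 0.00 for all tested genes. By complex, 1 of 4 genes rose in complex II, 7 of 9 in III, 10 of 16 in IV and 10 of 17 in V. In 22 of the 46 every KO+AAV heart lay above every KO heart, which held for 6.68% of all tested genes. The genes took 4.70% ± 0.38 of the library total in KO+AAV hearts (SD, n = 4) and 3.09% ± 0.25 in KO hearts (SD, n = 5). This comparison and that of KO with WT share the 5 KO libraries.

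Cox7a1 had the largest rise, with 16162, 12013, 7354 and 7346 in KO+AAV hearts and the KO values given above (log2 change 1.38 ± 0.28, SE; adjusted p = 0.00633). Cox8b had 9503, 8262, 5153 and 5261 in KO+AAV hearts (log2 change 1.23 ± 0.28, SE; adjusted p = 0.0109). In both, KO+AAV hearts 1 and 2 were the highest and no KO+AAV heart overlapped with KO. Sdhb had 18808, 13987, 12734 and 12246 (log2 change 0.93 ± 0.17, SE; adjusted p = 0.00349), Atp5g1 had 23490.1, 17345, 14684 and 16187 (log2 change 0.97 ± 0.18, SE; adjusted p = 0.0038) and Atp5g3 had 27744, 26329.8, 20847 and 20450.0 (log2 change 0.89 ± 0.18, SE; adjusted p = 0.00597) in KO+AAV hearts. Of complex III, Uqcrc1 had 23500.5, 18584, 17866 and 18529 (log2 change 0.80 ± 0.15, SE; adjusted p = 0.00496) and Cyc1 had 12588, 10654, 11217 and 11695 (log2 change 0.73 ± 0.13, SE; adjusted p = 0.00305). None of these 5 genes overlapped with KO. Uqcrb had 7883, 5401, 5198 and 4999, Cox4i1 had 46534, 40453, 31485 and 28667 and Cox5a had 10906, 10545, 12079.9 and 11916 in KO+AAV hearts, all above KO (log2 changes 0.68, 0.96 and 0.54). Cox6a2, uncalled between KO and WT, rose here, with 38162, 31638, 18589 and 18525 in KO+AAV hearts (log2 change 0.89 ± 0.25, SE; adjusted p = 0.0334). Uqcrq, Uqcr11, Cox6c, Cox7c, Atp5j and Atp5j2 likewise rose without having passed the test between KO and WT, by 0.78 to 1.06.

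The 18 genes that did not pass here included 9 of the 14 with long transcripts and the minor isoforms. Sdha had 10254, 7179, 16347 and 17350.0 in KO+AAV hearts, against 6102, 15404, 16357, 16655 and 7937 in KO hearts (log2 change 0.06 ± 0.34, SE; adjusted p = 0.92), and its change turned below 0 with equal totals or quantile normalisation and was 0.75 ± 0.24 (SE; adjusted p = 0.0666) with the index of short against long transcripts, described below, as a covariate. The lowest KO+AAV values were those of hearts 1 and 2, and the lowest KO values those of hearts 1 and 5. Atp5a1 had 37816, 31699.5, 51751 and 54531 in KO+AAV hearts, against 23476, 45011, 47367, 43494 and 26275 in KO hearts (log2 change 0.27 ± 0.25, SE; adjusted p = 0.485). The same hearts were the lowest of their groups, and with that covariate Atp5a1 passed (log2 change 0.70 ± 0.20, SE; adjusted p = 0.0416). Sdhc and Sdhd, at 7442, 4947, 7656 and 7165 and at 4104, 2814, 5334 and 5454 in KO+AAV hearts, changed by 0.34 and 0.24 (adjusted p = 0.134 and 0.4). Cox6a1, Cox8a and Cox4i2 had log2 changes of 0.49, 0.41 and 0.84 (adjusted p = 0.151, 0.112 and 0.0566).

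Without the 4 libraries that stand apart, which leaves 2 KO+AAV and 3 KO hearts, all 46 changes stayed above 0 with a median of 0.65. In this fit 0 of the 46 genes passed, where 89 of all tested genes passed and 23 of 13567 (0.17%) rose. The count was 8 without KO+AAV heart 1, 16 to 18 without KO heart 2, 3, 4 or 5, and 17 with quantile normalisation. Here too the share of all tested genes is not set beside the counts. With a term for Xist or Y-linked expression 7 genes rose (1.67% of all tested genes), and among the 2 KO+AAV and 5 KO hearts with Y-linked genes 4 rose (0.602% of all). Of the cardiomyocyte markers, 3 of 10 rose in KO+AAV hearts (median 0.67; sums 1222450.4 to 1742790.0 in KO+AAV against 763873 to 1120820.0 in KO hearts), and 4 of 10 fibroblast markers fell (median -0.64), where 5.55% of all tested genes rose and 5.69% fell. Of 4 tested atrial markers 1 rose and 2 fell, and the 7 listed summed to 8204.6 to 33166 in KO+AAV against 37909.6 to 127157 in KO hearts. Among 10 endothelial markers 1 rose and 0 fell (median 0.31), and no macrophage, erythroid, adipocyte or skeletal muscle marker passed. The part of cell composition in the rise of the subunit genes was not tested.

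Between KO+AAV and WT hearts, 0 of 46 subunit genes passed the test, where 1.33% of all tested genes did in either direction. An unadjusted p below 0.05 was reached by 4 of the 46 and by 2454 of all 13419 tested genes. The median log2 change was 0.14, with 32 genes above 0 and 14 below. A p that misses the threshold does not show that the groups are alike: the changes ran from -0.56 ± 0.34 (SE) for Sdha to 1.16 ± 0.40 for Cox6b2. The medians by complex were -0.34 for II, 0.03 for III, 0.19 for IV and 0.12 for V. Atp5b, Sdhc and Uqcrfs1 had every KO+AAV heart below every WT heart (adjusted p = 0.32, 0.246 and 0.22), and Cox6b2 had every KO+AAV heart above (adjusted p = 0.167). The share of all tested genes without overlap was not counted for this comparison, so these separations have no rate to be set against.

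Within each group at 6 months the subunit genes differed between libraries with the length of their transcripts. Of 45 tested genes with an annotated length, 31 have transcripts under 1000 bases and 14 have longer ones. In KO hearts 1 and 5 and KO+AAV hearts 1 and 2, the longest transcripts were the lowest of their groups. Examples were Sdha (2900 bases), Atp5a1 (2471 bases) and Uqcrc2 (1896 bases). Not all of the 14 followed this: KO+AAV heart 1 had the highest Uqcrc1 and Sdhb of its group, and KO heart 1 the highest Sdhb. Short transcripts such as Atp5k (272 bases) and Cox8b (360 bases) were highest in KO+AAV hearts 1 and 2, KO heart 1 and WT heart 5. For KO+AAV against KO the median change was 0.87 in the 31 short genes, of which 22 rose, and 0.41 in the 14 long ones, of which 5 rose. For KO against WT it was -0.65 in the short genes, of which 16 fell, and -0.68 in the long ones, of which 12 fell. Of other genes, 174 of 1505 short and 515 of 11369 longer ones rose in KO+AAV against KO. In KO against WT, 189 of these short and 832 of these longer genes fell. Across the 45 genes the correlation of the change with log10 length was -0.65 for KO+AAV against KO, -0.72 for KO+AAV against WT and -0.20 for KO against WT; the genes share their libraries and are not independent.

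**Figure D3:**
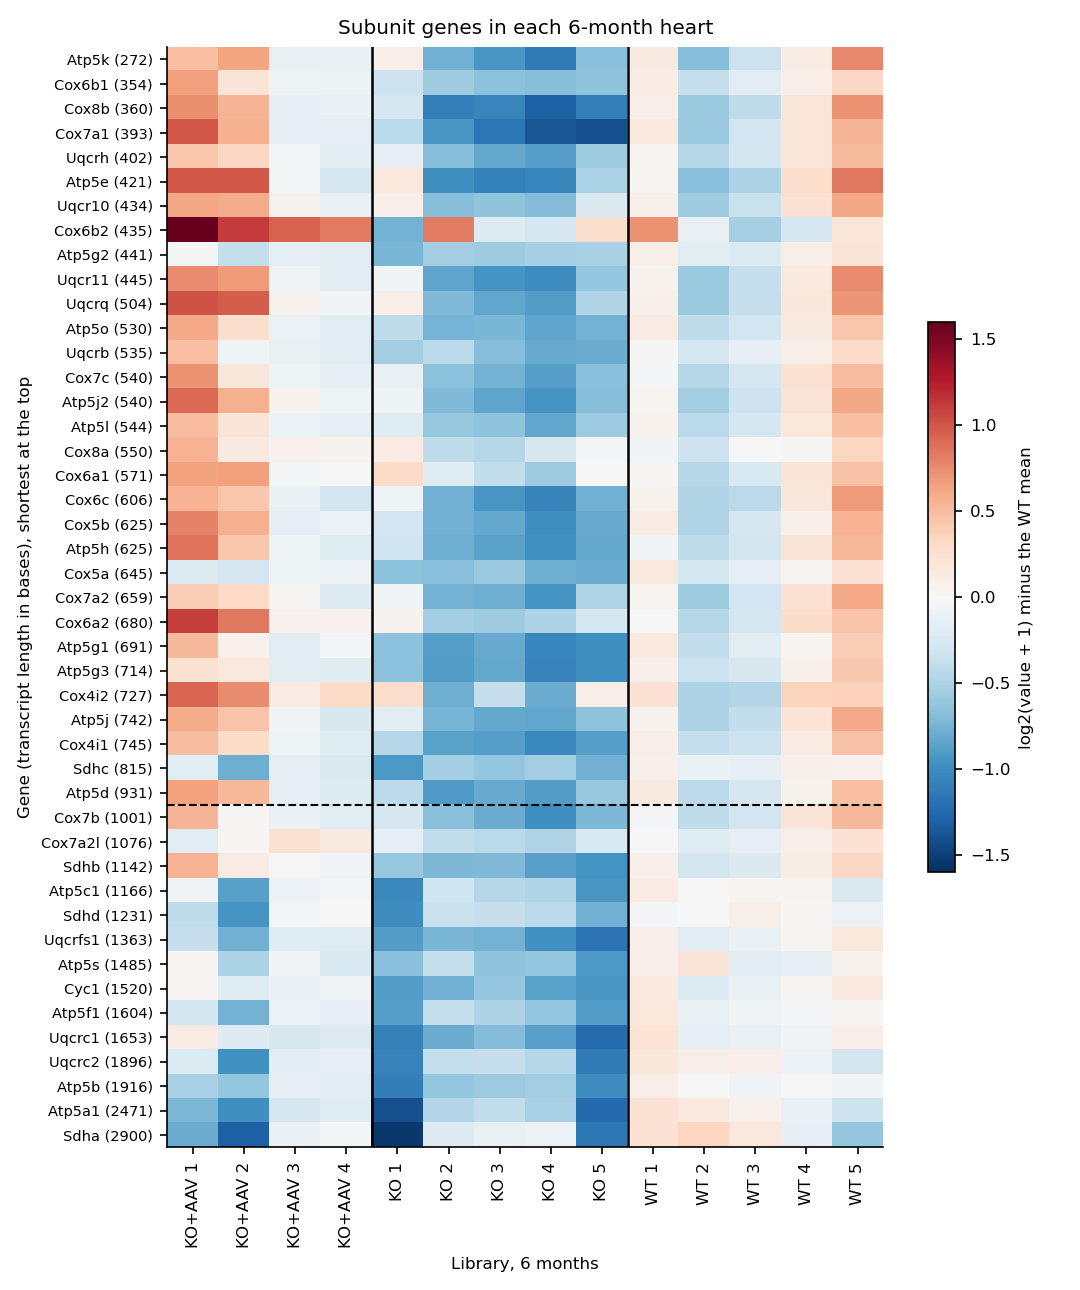
log2(value + 1) minus the WT mean (colour) of 45 subunit genes, shortest transcript at the top, in the 14 hearts at 6 months, with the groups KO+AAV, KO and WT from left to right; the dashed line marks 1000 bases. Sdha, Atp5a1 and Uqcrc2 are lowest in KO hearts 1 and 5 and KO+AAV heart 2, and complexes IV and V have their lowest medians in KO hearts 2 to 5.

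The same ordering was present in genes other than these subunit genes. An index of each library, the median deviation of 1505 other genes with short transcripts minus that of 5031 others with transcripts of at least 3000 bases, was 0.40, 0.26, 0.14 and 0.04 in KO+AAV hearts, 0.23, -0.31, -0.36, -0.45 and -0.0022 in KO hearts, and 0.11, -0.37, -0.20, 0.19 and 0.38 in WT hearts (log2 units). Its mean was higher in KO+AAV than in KO hearts by 0.39 (exact permutation test, two-sided p = 0.0635) and lower in KO than in WT hearts by 0.20 (exact p = 0.294; smallest possible 0.00794 for both). Other short genes, from which complex I was not removed, had a median change of 0.25 for KO+AAV against KO. For KO against WT their median was -0.12, and both were nearer to 0 than in the subunit genes. With the index as a covariate, an alternative added after seeing the data, 36 subunit genes fell in KO against WT (median -0.50; 44 of 46 below 0), where 14.4% of all tested genes fell in the same fit. In KO+AAV against KO 13 rose (median 0.46; all above 0), where 4.77% of all tested genes rose. For KO+AAV against KO the order by length turned in this fit, with a median change of 0.39 in the short and 0.60 in the long genes. For KO against WT the order stayed and the gap was wider, with -0.38 in the short and -0.77 in the long genes. The correlation with log10 length was then 0.36 for KO+AAV against KO, -0.46 for KO+AAV against WT and -0.65 for KO against WT. Sdha then passed for KO against WT (log2 change -0.98 ± 0.20, SE; adjusted p = 0.00233), and the medians by complex for KO+AAV against WT were -0.23, -0.08, 0.01 and -0.08 for II to V. What set the index in each library was not tested.

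**Figure D4:**
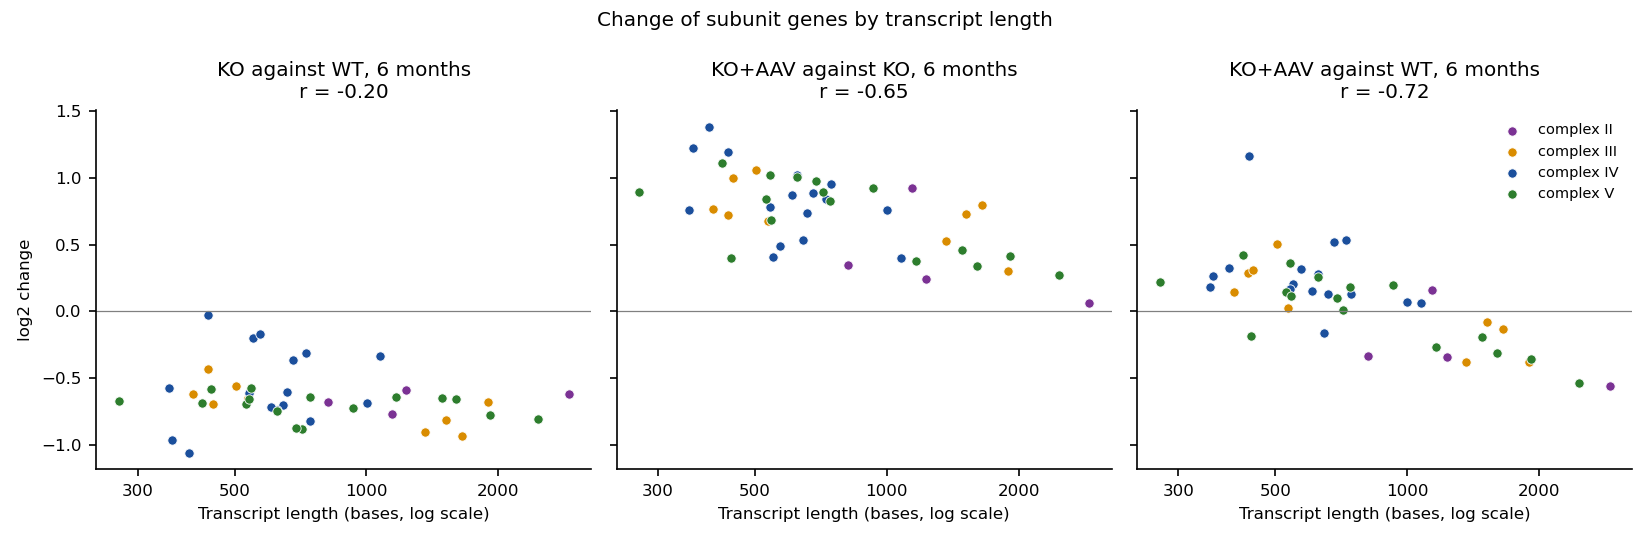
log2 change (vertical axis) against transcript length in bases (horizontal axis, log scale) of 45 subunit genes at 6 months, coloured by complex, for KO against WT, KO+AAV against KO and KO+AAV against WT. The change falls with length in both comparisons with KO+AAV (r = -0.65 and -0.72) and less so for KO against WT (r = -0.20).

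At 6 weeks, 0 of 46 subunit genes passed the test between KO and WT hearts, where 0.589% of 13242 tested genes did. An unadjusted p below 0.05 was reached by 8 of the 46 and by 2045 of all 13242 tested genes. The median log2 change was -0.31, with 36 genes below 0, against 0.01 for all tested genes. By complex the medians were -0.02 for II, -0.31 for III, -0.17 for IV and -0.46 for V. The 47 genes took 3.16% ± 0.30 of the library total in KO hearts and 3.88% ± 0.68 in WT hearts (SD, n = 3 each). WT values were widely spread: Sdhb had 3991, 3819 and 3377 in KO hearts, against 10015, 5038 and 3459 in WT hearts, and Atp5d, subunit delta, had 8545, 7821 and 6789.8 in KO hearts, against 19240.0, 12235 and 8064 in WT hearts. In both genes the same WT heart was the highest and another lay within the KO range. The index of short against long transcripts was 0.11, 0.11 and -0.12 in KO hearts and 0.30, -0.08 and -0.32 in WT hearts, and with it as a covariate Cox8b (log2 change -0.86 ± 0.16, SE; adjusted p = 0.0383) and Atp5d (-0.81 ± 0.17; adjusted p = 0.0478) fell, where 0.831% of all tested genes fell. No cell type marker listed passed the test at this age. Fibroblast marker sums were 39403 to 41832 in KO against 29021 to 34563 in WT hearts (median log2 change 0.51). Endothelial sums were 17474 to 22655 against 12151 to 15157 (median 0.34), and skeletal muscle sums, all low, also lay above WT. Sums of the other lists overlapped, with a cardiomyocyte median of -0.36. Atrial markers were high in both groups at this age, although the labels name left ventricle. All 7 passed the filter, against 4 at 6 months, and summed to 125574.5 to 231001 in KO and 99066 to 189287 in WT hearts. The part of cell composition at this age was not tested.

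The KO effect at 6 months minus that at 6 weeks was below 0 for 43 of 46 genes (median -0.37, against -0.02 for all genes). Only Atp5g2 passed the test of the difference, where 4.08% of 12709 genes did. An unadjusted p below 0.05 was reached by 9 of the 46 and by 2276 of the 12709. Atp5g2 at 6 weeks had 2284, 1708 and 2021 in KO hearts, against 1282, 1902 and 1411 in WT hearts (log2 change 0.40 ± 0.21, SE), so its direction there was opposite to that at 6 months (difference -0.98 ± 0.24, SE; adjusted p = 0.0281). This call was lost without the variance trend and when any 1 of 5 of the 6 libraries at 6 weeks was left out (adjusted p 0.058 to 0.0914). With the index as a covariate 6 of 46 genes passed (Sdha, Uqcrc2, Cox7b, Cox8a, Atp5a1 and Atp5g2), a share near the 10.5% of all genes that passed in that fit.

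Subunits 6a, 7a and 8 of complex IV have a muscle form and a widely expressed form, and their ratio within a library does not depend on a factor applied to the whole library. At 6 months the muscle forms of subunits 7a and 8 were lower relative to the other form in KO than in WT hearts, as tested below. Both calls were lost with any single heart left out and with quantile normalisation. Per base of transcript, the level of Cox8b was 3.68 times that of Cox8a in KO hearts and 6.35 times in WT hearts at 6 months, and 3.85 times in KO and 9.84 times in WT hearts at 6 weeks. For Cox7a1 and Cox7a2 these were 2.17 times in KO and 2.95 times in WT hearts at 6 months. Per base, the level of Cox6a2 was 13.7 times that of Cox6a1 in KO hearts and 15.8 times in WT hearts at 6 months, and 5.35 times in KO and 12.2 times in WT hearts at 6 weeks.

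The log2 ratio of Cox8b to Cox8a was 2.19, 2.40, 1.79 and 1.84 in KO+AAV hearts, 1.604, 1.31, 1.40, 0.94 and 0.92 in KO hearts and 2.13, 1.73, 1.59, 2.16 and 2.37 in WT hearts at 6 months. KO was below WT by 0.76 and overlapped with it only through KO heart 1, which lay above WT heart 3 (exact permutation test, two-sided p = 0.0159), and KO+AAV was above KO by 0.82 without overlap (exact p = 0.0159). The log2 ratio of Cox7a1 to Cox7a2 was 1.42, 1.07, 0.67 and 0.89 in KO+AAV hearts, 0.44, 0.64, 0.45, 0.40 and -0.11 in KO hearts and 0.93, 0.80, 0.82, 0.78 and 0.76 in WT hearts. KO was below WT by 0.46 and below KO+AAV by 0.65, with no overlap in either (exact p = 0.00794 each, the smallest possible). The log2 ratio of Cox6a2 to Cox6a1 was 4.70, 4.41, 4.31 and 4.31 in KO+AAV hearts, 3.99, 3.88, 4.05, 4.31 and 3.95 in KO hearts and 4.21, 4.23, 4.19, 4.31 and 4.21 in WT hearts. KO+AAV was above KO by 0.40 and above WT by 0.20 (exact p = 0.0159 each), and KO was below WT by 0.19 (exact p = 0.0397), a direction that turned with quantile normalisation (0.021). Adjusted over the 16 tests of ratios, the adjusted p was 0.0423 for the 6 differences of the smallest p and 0.0705 for Cox6a2 to Cox6a1 in KO against WT. The calls did not hold with single hearts left out. For Cox8b to Cox8a and Cox7a1 to Cox7a2 in KO against WT, the adjusted p ran from 0.0508 to 0.0762 and from 0.0508 to 0.0653, so both calls were lost in all 10 cases. The other 4 calls were lost in 8 of 9 cases each and passed only without KO+AAV heart 4 (adjusted p = 0.0476), with a highest adjusted p of 0.113. With quantile normalisation none of the 6 passed (adjusted p = 0.0762 for the 4 differences of Cox8b to Cox8a and Cox7a1 to Cox7a2, and 0.369 and 0.282 for Cox6a2 to Cox6a1 in KO+AAV against KO and WT), and these 6 kept their direction.

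At 6 weeks 3 hearts against 3 cannot give an exact p below 0.1. The log2 ratio of Cox6a2 to Cox6a1 was 2.86, 2.63 and 2.51 in KO hearts and 3.84, 3.64 and 4.18 in WT hearts, and that of Cox8b to Cox8a was 1.28, 1.48 and 1.24 in KO and 3.18, 2.43 and 2.34 in WT hearts. Both ratios were lower in KO without overlap, by 1.22 and 1.32 (exact p = 0.1 each). Taken singly, Cox6a1 had 2438, 2185 and 2562 in KO hearts, against 1555, 1632 and 1030.3 in WT hearts (limma log2 change 0.79 ± 0.22, SE; adjusted p = 0.121), and Cox8a had 1852, 1626 and 1794 in KO hearts, against 1133, 1348 and 1156 in WT hearts (0.54 ± 0.18; adjusted p = 0.202). Cox6a2 had 17659.6, 13525 and 14599.8 in KO hearts, against 22271, 20427 and 18654 in WT hearts (-0.43 ± 0.26; adjusted p = 0.458), and Cox8b had 4497, 4536 and 4243 in KO hearts, against 10305, 7259 and 5860.4 in WT hearts (-0.78 ± 0.24; adjusted p = 0.17). All 4 genes separated the groups completely, but the share of all genes that did so at this age was not counted. None of the 4 passed the test over all genes, and 23.8% of the 31-base words of Cox6a1 also occur in another annotated gene. Cox7a1 had 3272, 3916 and 3342 in KO hearts, against 9404, 5229 and 3348 in WT hearts, Cox7a2 had 3126, 3249 and 2751 in KO hearts, against 4987, 3614 and 3029 in WT hearts, and their log2 ratio differed by -0.33 with overlap (exact p = 0.3).

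Subunit 4 has a common form, Cox4i1, and a minor form, Cox4i2. Per base, the level of Cox4i1 was 163 times that of Cox4i2 in KO hearts and 238 times in WT hearts at 6 months. The log2 ratio of Cox4i2 to Cox4i1 was -7.51, -7.47, -7.74 and -7.42 in KO+AAV hearts, -7.19, -7.85, -7.41, -7.70 and -6.96 in KO hearts and -7.81, -8.06, -8.07, -7.71 and -8.03 in WT hearts. KO was above WT by 0.51 (exact p = 0.0317, adjusted p = 0.0635) and KO+AAV was above WT by 0.40 (exact p = 0.0238, adjusted p = 0.0544), neither past the threshold after adjustment. At 6 weeks it differed by 0.61 with overlap (exact p = 0.3). With the index of short transcripts as a covariate, the fitted changes of KO against WT at 6 months were -0.65 for Cox8b and -0.04 for Cox8a, and -0.78 for Cox7a1 and -0.32 for Cox7a2.

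**Figure D5:**
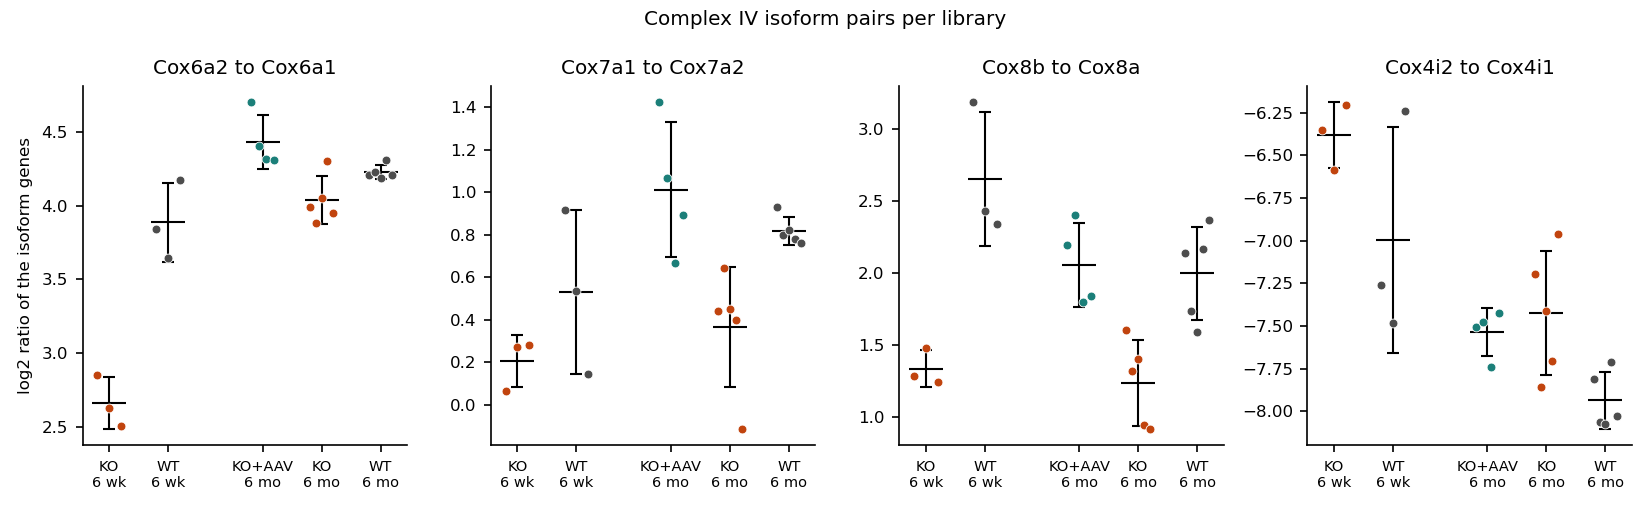
log2 ratio of the muscle or inducible form to the widely expressed form (vertical axis) for 4 complex IV subunits, 1 point per library, by group (horizontal axis); bars are mean and SD, and each panel has its own scale. KO lies below WT for Cox6a2 to Cox6a1 and Cox8b to Cox8a at 6 weeks, and KO lies below KO+AAV and WT for Cox7a1 to Cox7a2 at 6 months.

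The 3 genes for subunit c encode the same mature protein with different leader peptides. Atp5g1, Atp5g2 and Atp5g3 made up 40.0%, 6.53% and 53.5% of their summed value in KO+AAV hearts, 37.6%, 9.13% and 53.3% in KO hearts and 38.1%, 7.53% and 54.3% in WT hearts at 6 months. At 6 weeks the shares were 43.8%, 9.45% and 46.7% in KO hearts and 39.8%, 5.78% and 54.4% in WT hearts. The share of Atp5g2 was 7.14% to 10.4% in KO and 6.57% to 8.43% in WT hearts at 6 months, which overlap, and 7.35% to 10.7% in KO and 3.56% to 7.03% in WT hearts at 6 weeks, which do not.

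Of 25 tested assembly factors of complex IV, 8 fell in KO hearts at 6 months and 0 rose (median -0.40), where 8.18% of all tested genes fell. The smallest p values were those of Cox18, a membrane insertase (log2 change -0.94 ± 0.17, SE; adjusted p = 0.00109), Higd1a, a complex IV regulator (log2 change -0.60 ± 0.13, SE; adjusted p = 0.00475), and Cmc2 (log2 change -0.68 ± 0.15, SE; adjusted p = 0.005). In KO+AAV against KO, 7 of the 25 rose, Higd1a and Cmc2 among them, where 5.55% of all tested genes rose. Of 5 assembly and inhibitor genes of complex V, 2 fell in KO, Tmem242 (log2 change -0.69 ± 0.12, SE; adjusted p = 0.000818) and Tmem70 (log2 change -0.67 ± 0.15, SE; adjusted p = 0.00478), and 2 rose in KO+AAV. None of the 4 assembly factors of complex II or the 6 of complex III passed in KO (medians -0.34 and -0.33).

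Cytochrome c and the enzymes of ubiquinone synthesis, which supply the mobile electron carriers between the complexes, were tested as 14 genes: 11 fell in KO against WT at 6 months, with a median of -0.68, and 5 rose in KO+AAV against KO, where 8.18% and 5.55% of all tested genes did. Coq6, a hydroxylase of the ubiquinone ring, averaged 526.2 ± 65.8 in KO and 887 ± 118 in WT hearts (SD, n = 5 each; log2 change -0.75 ± 0.13, SE; adjusted p = 0.00079). Coq10a, a ubiquinone-binding protein, averaged 2231 ± 137 in KO and 3673 ± 759 in WT hearts (log2 change -0.70 ± 0.13, SE; adjusted p = 0.00218). Cycs, somatic cytochrome c, averaged 9181 ± 1033 in KO and 14899.6 ± 1381 in WT hearts (log2 change -0.70 ± 0.14, SE; adjusted p = 0.00242). Of 16 regulators of respiratory genes 4 fell and 0 rose, against the same 8.18% of all tested genes that fell. Ppargc1a, which encodes PGC-1alpha, averaged 1079 ± 129 in KO and 2363 ± 908 in WT hearts (log2 change -1.05 ± 0.24, SE; adjusted p = 0.00728). Ppara, a receptor that drives fatty acid oxidation genes, and Esrra, the estrogen-related receptor alpha, followed (log2 change -0.70 ± 0.20, SE; adjusted p = 0.0251, and log2 change -0.39 ± 0.11, SE; adjusted p = 0.0305). Of the 16, only Esrra rose in KO+AAV against KO (log2 change 0.52 ± 0.12, SE; adjusted p = 0.0131), while Ppargc1a had a log2 change of 0.47 ± 0.26 (SE; adjusted p = 0.23). None of these lists had a gene that passed between KO and WT at 6 weeks. The subunits encoded by mitochondrial DNA were not analysed here.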

How the data were processed

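RNA was measured by sequencing of poly(A) RNA from 20 mouse heart samples in 5 groups, with a stranded kit, 150 base paired reads per the labels' protocols and the series' design text. The authors deposited normalised counts per gene, treated here as a non-negative signal with fractional values; whole reads could not be recovered, so a count test was not used. The genome build was mm10, per the submitters' processing notes; for the aligner, counter, annotation and strand setting, the sources used here give nothing. The 2 ages came in separate tables. Columns at 6 months matched samples, and those at 6 weeks matched groups only. A depth is unknown and no counting interval is given.

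Values were tested as log2(value + 1) with limma 3.58.1 (R 4.3.3), with a mean-variance trend and Benjamini-Hochberg adjustment over all genes of a table, and a threshold of 0.05; fold changes on this scale understate those of low genes. Genes needed a value of at least 10 in 3 libraries at 6 weeks or 4 at 6 months. The 3 groups at 6 months shared 1 fit. The difference between ages was the difference of the fitted effects over their combined standard error. Isoform ratios were compared with two-sided exact permutation tests over libraries, adjusted over 16 tests (Python 3.11.15, pandas 2.3.3, numpy 2.4.6). The fits were tested on simulated data. Fold changes on the log2 scale are positive where the first-named group is higher. Lengths, overlaps and shared 31-base words came from the GENCODE annotation of mm10, and promoters from RefSeq (GRCm38.p6). Alternatives changed the pseudocount, filter, scaling, variance model, fitted groups, replicate block and class of Xist or Y-linked genes, and left out libraries.

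The genes, lists and tests were chosen with earlier results of these data known. Values in every library are given, per complex, for the 4 genes of smallest p between KO and WT at 6 months, for isoform pairs, for Atp5g1 to Atp5g3 and for genes not called there; up to 3 genes of each other list are named by the same p. Genes named as examples beyond these were chosen after their values were seen.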

Additional observations from a re-analysis of the deposited data

Results flagged for a closer look

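Of 138 sets of 1 gene in 1 group checked at 6 months, 16 had a library far from the others. Chance flags about 1 in 20 independent sets, but these genes share their libraries, so the 16 cannot be set against that rate. KO heart 1 accounted for 11 of the 16, KO+AAV heart 1 for 3 and KO+AAV heart 2 for 2.

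KO heart 1 stood above the other KO hearts in 10 genes. Its values were 11777 for Atp5h, 7263 for Atp5j, 10736 for Atp5j2, 4976 for Atp5k and 13844 for Atp5o, all of complex V. They were 23919 for Cox4i1, 8989 for Cox5b, 10938 for Cox6c, 8170.4 for Cox7c and 4716 for Cox8b in complex IV. The highest values of the other KO hearts, in the same order of genes, were 8549, 5216, 7107, 2907 and 11132 in complex V. In complex IV they were 18125, 6551, 6752, 5577 and 2717. In Atp5g2 KO heart 1 stood below the others, with 1946 against 2179 to 2259.

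KO+AAV heart 1 stood above the other KO+AAV hearts in Uqcrc1 (23500.5 against 17866 to 18584), Uqcrb (7883 against 4999 to 5401) and Cox8a (2077 against 1473 to 1567). KO+AAV heart 2 stood below the others in Atp5c1 (7603 against 13047 to 13650.3) and Uqcrc2 (7392 against 12423 to 13024). The index of short against long transcripts was 0.23 in KO heart 1, 0.40 in KO+AAV heart 1 and 0.26 in KO+AAV heart 2, and its part in these values was not tested.

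The KO effect on Atp5g2 differed between the ages by a test of the difference itself (6 months minus 6 weeks, log2 -0.98; limma adjusted p = 0.0281). Its transcript shares all of its 31-base words with other annotated genes.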

How the results depend on the processing

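Of the 29 genes that fell in KO against WT at 6 months, 11 passed under all 24 alternatives, and of the 28 that rose in KO+AAV against KO, 0 passed under all 23. The count in KO against WT was 16 with equal totals, 16 with quantile normalisation, 17 with a term for the Xist or Y-linked class and 12 in Y-linked hearts alone, and ran from 17 to 33 with 1 library left out. The count in KO+AAV against KO was 17 with quantile normalisation, 13 with the short-to-long transcript index as a covariate, 7 with the class term, 4 in Y-linked hearts alone and 0 (2 against 3 hearts) without the 4 libraries that stand apart, and ran from 8 to 33 with 1 library left out. With no filter both counts were 21. Shares of all tested genes are not given for the fits with no filter, with quantile normalisation or with 1 library left out. KO+AAV against WT stayed at 0 under all alternatives, and its median was -0.11 without those 4 libraries. At 6 weeks the count was 2 with the index and 0 to 0 with 1 library left out. The difference between ages gave 0 genes without the variance trend, 6 with the index and 0 to 3 with 1 library left out. Making totals equal moved the median of all genes by 0.16 for KO against WT at 6 months (1775 up and 653 down, against 1091 and 1098), with 521 up and 1017 down for KO+AAV against KO (745 and 764), 158 and 82 for KO+AAV against WT (82 and 96) and 27 and 9 at 6 weeks (50 and 28). The index, the Y-linked subset and the omission of the 4 libraries were chosen after seeing the data.

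The replicate block at 6 months gave 33, 33 and 0 genes for KO against WT, KO+AAV against KO and KO+AAV against WT. Between same-numbered libraries, deviations from the group means had a correlation above 0.1 in 7 of 13 pairs (-0.391 to 0.253). Differently numbered pairs were not set beside them. Whether same-numbered libraries share more than a number was therefore not settled. No paired analysis was possible at 6 weeks or between ages because the columns carry no replicate numbers of the samples.

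With quantile normalisation the log2 ratio of Cox6a2 to Cox6a1 was 0.021 for KO against WT, 0.13 for KO+AAV against KO and 0.15 for KO+AAV against WT, that of Cox7a1 to Cox7a2 was -0.41 and 0.62, and that of Cox8b to Cox8a -0.69 and 0.73, for KO against WT and KO+AAV against KO; Cox4i2 to Cox4i1 was 0.063 for KO+AAV against KO. With a pseudocount of 10, Cox4i2 to Cox4i1 passed at 0.53 (KO against WT) and 0.37 (KO+AAV against WT). With 1 library left out, Cox6a2 to Cox6a1 ran over 0.31 to 0.46 (KO+AAV against KO) and 0.11 to 0.24 (against WT), Cox7a1 to Cox7a2 over -0.53 to -0.34 (KO against WT) and 0.51 to 0.76 (KO+AAV against KO), Cox8b to Cox8a over -0.86 to -0.67, 0.71 to 0.91 and -0.056 to 0.15 (KO+AAV against WT; -0.056, -0.044 and -0.007 below 0), and Cox4i2 to Cox4i1 over -0.22 to 0.0053 (KO+AAV against KO).

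Changes of sign were confined to uncalled genes among those named. For KO against WT, Cox6b2 took values of 0.013, 0.015, 0.02, 0.027, 0.031, 0.11, 0.12 and 0.15 and Cox6a1 of 0.053 and 0.081 under some alternatives; with 1 library left out Cox6b2 ran from -0.24 to 0.15. For KO+AAV against KO, Sdha took -0.42, -0.17, -0.12, -0.10, -0.087, -0.083, -0.074, -0.046 and -0.018, and Atp5a1 -0.078 without KO hearts 1 and 5. The cause of these changes was not tested. Number of libraries and unknown depth limit all results.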
